A study of Mus musculus with 10 samples.

Results

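The uncoupling proteins Ucp1, Ucp2 and Ucp3 were followed in brown adipose tissue, the heat-producing fat of rodents, as 3 probe sets of the 45037 on the expression array. A probe set is a group of short probes that together read 1 transcript. Members were all probe sets that the platform annotation gives to 1 of these genes alone. Ucp1 had 1 probe set (1418197_at) and Ucp3 had 2 (1420657_at and 1420658_at), and the annotation used here gave none to Ucp2, which is not analysed here. That annotation names no gene for 9160 probe sets, and whether any of them reads Ucp2 was not tested. The tissue came from untreated littermate mice of about 1 year on a 129 background, 5 labelled as knockouts (KO) of Sirt3, a mitochondrial deacetylase, and 5 wild type (WT). Each array was taken as 1 mouse. The sources used here do not say how the gene was deleted, in which cells, or the sex of the mice.

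Uncoupling proteins are carriers of the mitochondrial inner membrane. UCP1 lets protons flow back into the matrix without making ATP, so that respiration gives heat, and it is the defining protein of brown fat. Its gene is switched on by noradrenaline through cyclic AMP, and nuclear receptors and their coactivator PGC-1alpha act on its enhancer and promoter. UCP3 is found in skeletal muscle and brown fat and follows fatty acid supply through PPAR receptors; what it transports is less settled. The comparison asks whether loss of a mitochondrial deacetylase goes with another level of these carriers.

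The promoters of both measured genes are shown because nuclear receptors among the regulators of these genes bind DNA at the half-site AGGTCA. The sequences are the 250 bases before the RefSeq start, plus strand, GRCm38.p6, at chr8:83290098-83290347 for Ucp1 and chr7:100472741-100472990 for Ucp3. Capitals mark AGGTCA and, for a TATA box, TATATA.
Ucp1: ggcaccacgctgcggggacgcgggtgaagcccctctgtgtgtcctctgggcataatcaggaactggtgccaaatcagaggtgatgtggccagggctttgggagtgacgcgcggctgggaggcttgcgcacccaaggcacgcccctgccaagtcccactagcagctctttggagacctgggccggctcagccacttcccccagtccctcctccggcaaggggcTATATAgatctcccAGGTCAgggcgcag
Ucp3: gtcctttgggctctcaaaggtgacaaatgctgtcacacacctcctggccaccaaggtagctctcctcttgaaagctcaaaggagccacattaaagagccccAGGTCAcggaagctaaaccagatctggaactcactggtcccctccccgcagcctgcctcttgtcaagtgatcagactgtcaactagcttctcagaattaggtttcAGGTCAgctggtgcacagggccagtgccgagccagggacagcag
AGGTCA stood once before Ucp1, from -14 to -9 relative to the start, on the plus strand. Before Ucp3 it stood at -149 to -144 and at -44 to -39, also on the plus strand. It was searched as AGGTCA and TGACCT, and 14.0% of 32851 promoter windows of this length hold it on either strand. TATATA, searched on the plus strand, lay at -28 to -23 before Ucp1, and 5.25% of the windows hold it. The cyclic AMP half-site TGACG, searched with CGTCA, lay at -147 to -143 before Ucp1 and was not in the window of Ucp3; 17.8% of the windows hold it. TATAAA was in neither window, against 7.59% of all. These matches describe letters and were not tested for binding.

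Signals are on the log2 scale, so that 1 unit is a doubling, and array medians lay between 5.58 and 5.61. All pairs of arrays correlated between 0.988 and 0.997 across probe sets. Sirt3 itself was not lower in arrays labelled KO: it gave 10.39, 10.29, 10.40, 10.22 and 10.31 in KO 1 to 5, and 10.10, 10.28, 10.19, 10.07 and 10.03 in WT 1 to 5. The difference was 0.19 ± 0.061 (KO minus WT, SE; adjusted p of limma 0.914, exact permutation p = 0.016, n = 5 per group). Its probe set does not check the labels if it lies outside the deleted part, so directions below refer to arrays labelled KO. Skeletal muscle transcripts set some arrays apart: the mean of 20 muscle markers was 5.91, 10.89, 5.65, 10.86 and 9.88 in KO 1 to 5, and 10.94, 11.56, 10.89, 9.35 and 7.60 in WT 1 to 5. The 3' minus 5' signal of the Pcx control transcript, a sign of RNA quality, also differed. It was 2.77 to 2.95 in KO arrays and 2.96 to 3.44 in WT arrays (exact two-sided permutation p = 0.0079, n = 5 per group). The groups did not overlap, as in 0.711% of probe sets, but their ranges nearly met. No other control transcript was read, so RNA quality was judged by 1 control only. The part of muscle RNA and RNA quality in the results below was not tested except where a value is given.

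Ucp1 averaged slightly lower in arrays labelled KO, and the difference did not exceed the spread between mice. It gave 14.19, 14.11, 13.96, 14.09 and 14.14 in KO 1 to 5, and 14.10, 14.09, 14.17, 14.26 and 14.28 in WT 1 to 5. The groups overlapped, with 3 of 5 KO arrays inside the WT range, KO 3 the lowest of all and WT 4 and WT 5 the highest. Means were 14.10 ± 0.09 in KO arrays and 14.18 ± 0.09 in WT arrays (SD, n = 5 each). The difference was -0.08 ± 0.061 log2 units (KO minus WT, SE, 95% confidence interval -0.22 to 0.05), or 0.944 times the WT level (0.860 to 1.04). In limma, adjusted over 18193 genes, it had p = 0.914, and exact permutation of the 5 against 5 values, two-sided, gave p = 0.18. In a tissue sample, fewer brown adipocytes and less Ucp1 RNA per cell cannot be told apart.

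The difference kept its sign in all 23 alternatives run, but some of these could not move it. Variance models, probe set choice, the filter on dim genes, the replicate block and exact permutation left it at -0.0824. Its size moved when arrays were left out. It was -0.0472 without KO 3, the lowest array, and -0.0625 or -0.057 without WT 4 or WT 5, the highest. Leaving out an extreme array must shrink such a difference. Without WT 5, KO 1 and KO 3, the arrays poorest in muscle transcripts, the Ucp1 difference was -0.0413, and with the muscle marker mean as a covariate it was -0.0933. Ucp1 varied little from mouse to mouse: its SD within groups was 0.0877, and 17.8% of probe sets varied less. Its signal lay near the top of the scale, where the highest value in the table was 14.65. Whether the array still responds in proportion there was not tested.

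**Figure D1:**
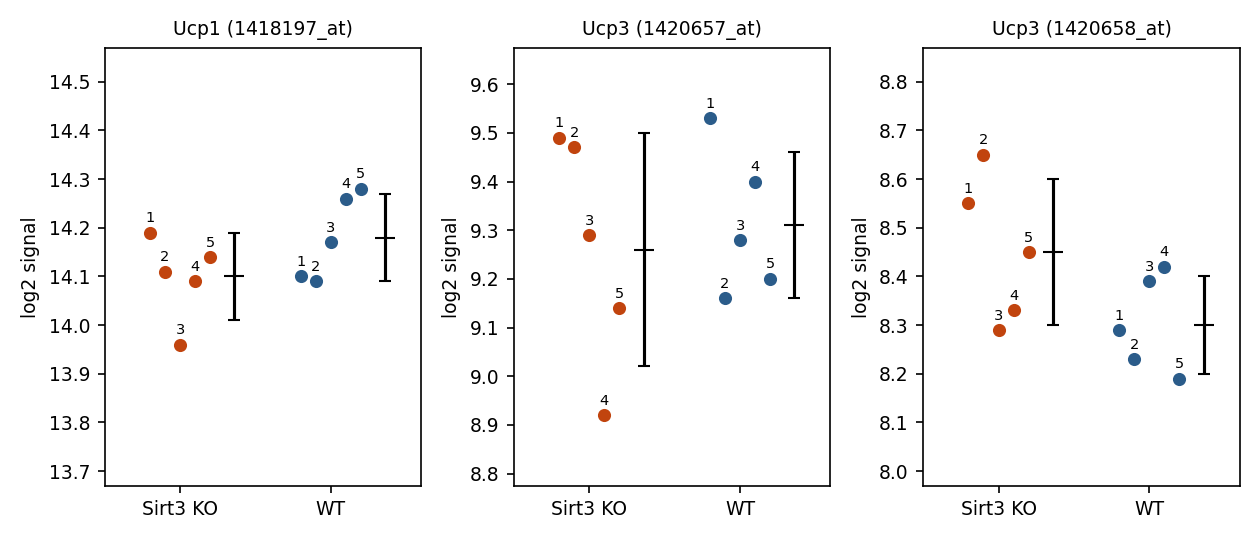
Log2 signal of each probe set of Ucp1 and Ucp3 in 5 arrays labelled Sirt3 KO and 5 WT arrays, 1 point per mouse numbered as in the titles, with mean and SD beside each group; each panel spans the same height on the log2 axis. The groups overlap in all 3 panels, and Ucp3 averages lower in KO arrays in 1 probe set and higher in the other.

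Ucp3 did not give 1 answer: its probe sets differed in sign, and neither passed the test. The first, 1420657_at, gave 9.49, 9.47, 9.29, 8.92 and 9.14 in KO 1 to 5, and 9.53, 9.16, 9.28, 9.40 and 9.20 in WT 1 to 5. KO arrays spanned more than WT arrays, with 3 of 5 inside the WT range, and KO 4 and KO 5 lay below it. Means were 9.26 ± 0.24 in KO arrays and 9.31 ± 0.15 in WT arrays (SD, n = 5 each), a difference of -0.05 ± 0.11 (SE, interval -0.30 to 0.20). In limma, adjusted over the same genes, it had p = 0.958, and the exact permutation p, with n = 5 per group, was 0.70. Without KO 4 the difference turned to 0.032, and without WT 1 it was -0.000399.

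The second Ucp3 probe set leaned the other way. 1420658_at gave 8.55, 8.65, 8.29, 8.33 and 8.45 in KO 1 to 5, and 8.29, 8.23, 8.39, 8.42 and 8.19 in WT 1 to 5. Of the KO arrays, 3 lay above every WT array and 2 inside the WT range. The means were 8.45 ± 0.15 in KO arrays and 8.30 ± 0.10 in WT arrays (SD, n = 5 each). The difference of 0.15 ± 0.079 (SE, interval -0.02 to 0.32), or 1.11 times the WT level (0.983 to 1.25), had an adjusted p of 0.896 by limma over all probe sets and an exact permutation p of 0.095 (n = 5 per group). It kept its sign without each array in turn, from 0.0999 without KO 2 to 0.188 without KO 3.

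Set against each other within arrays, the Ucp3 probe sets did not separate beyond the spread between mice. The first minus the second was 0.94, 0.82, 1.00, 0.59 and 0.69 in KO 1 to 5, and 1.24, 0.93, 0.88, 0.98 and 1.01 in WT 1 to 5. The mean gap was 0.81 ± 0.17 in KO arrays and 1.01 ± 0.14 in WT arrays (SD, n = 5 each; exact two-sided permutation p = 0.087). All 5 KO arrays lay below the WT mean, and this test was added after the values were seen. Across the 10 arrays the probe sets correlated at r = 0.44 (permutation p = 0.20, adjusted 0.61) and rho = 0.27 (p = 0.45, adjusted 0.71), and at r = 0.74 without KO 4 and WT 1. Averaging both probe sets gave a Ucp3 difference of 0.0473, the opposite sign to the first probe set. The sources used here do not say which transcript forms each probe set reads.

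**Figure D2:**
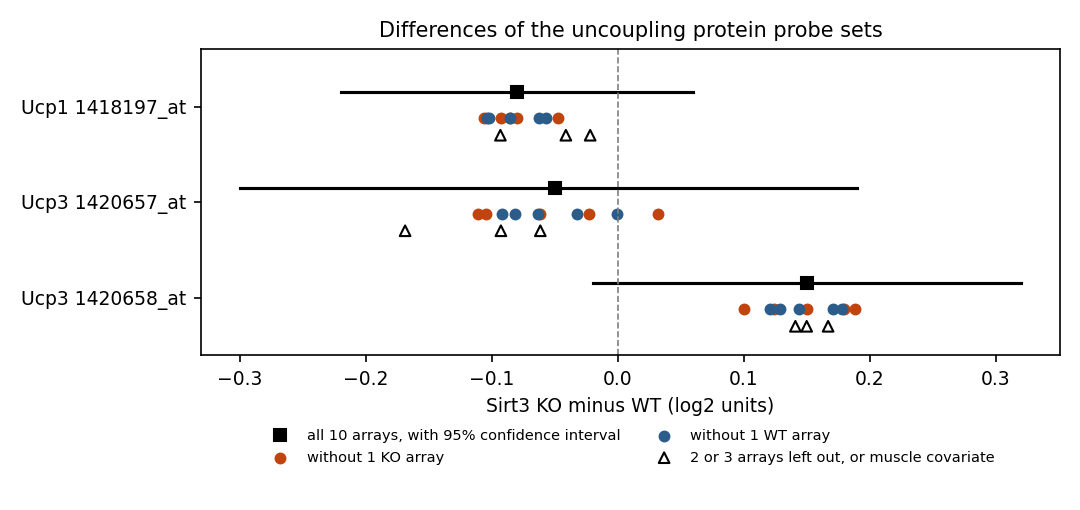
Differences of the Ucp1 and Ucp3 probe sets, arrays labelled Sirt3 KO minus WT in log2 units: squares are the fit to all 10 arrays over all probe sets with 95% confidence intervals, filled circles leave out 1 array, and triangles leave out 2 or 3 arrays or add the muscle covariate. All 3 intervals cross 0, and 1420657_at changes sign without KO 4, at 0.032.

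As background to these values, limma called 0 of 18193 genes and 0 of 45037 probe sets at an adjusted p under 0.05, or 0% of each. With no adjustment, 851 genes (4.68%) and 2444 probe sets (5.43%) were under 0.05, and none of the 3 uncoupling protein probe sets was among them. Ucp1 and 1420657_at averaged lower and 1420658_at higher in arrays labelled KO, beside 51.9% of all probe sets lower and 48.1% higher. Their unadjusted p in that fit was 0.217 for Ucp1, 0.641 for 1420657_at and 0.0852 for 1420658_at. No member had groups that did not overlap, which 0.711% of probe sets and 0.627% of genes had.

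Ucp1 and Ucp3 by its first probe set had no correlation over the mice that passed a test. They had r = 0.13 (permutation p = 0.72, adjusted 0.83 over 9 relations) and rho = 0.20 (p = 0.58, adjusted 0.71), and r = 0.38 without KO 3 and WT 5. The arrays highest in Ucp1 were WT 5 and WT 4, and those highest in Ucp3 by 1420657_at were WT 1 and KO 1. The genes most like each member were ranked by Pearson r with it over the 10 arrays among 8865 named genes whose mean signal was above the median of all genes. Being the top of so many, these r are a description, and all points share their arrays and normalization.

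For Ucp1 the nearest was Cxcl14, a secreted chemokine, with r = 0.98, rho = 0.90 and r = 0.95 without KO 3 and WT 5. Cxcl14 gave 10.56, 9.90, 8.62, 9.97 and 10 in KO 1 to 5, and 9.96, 9.49, 10.39, 11.14 and 11.02 in WT 1 to 5. Both transcripts had their lowest value in KO 3 and their highest values in WT 4 and WT 5, yet Cxcl14 spanned 2.52 log2 units where Ucp1 spanned 0.325. A second probe set of Cxcl14 also had r = 0.97 with Ucp1. Cxcl14 itself differed by -0.59 ± 0.38 between arrays labelled KO and WT. Next came Atp6ap1, an accessory subunit of the vacuolar proton pump (r = 0.95), Prelid3b, a PRELI-domain protein (0.94), Tmem183a (0.93) and Cebpg, a leucine zipper transcription factor (0.92). Without KO 3 and WT 5 these 4 had r between 0.82 (Cebpg) and 0.91 (Prelid3b), and the other probe sets had r = 0.74 and 0.18 for Cebpg and 0.77 and 0.84 for Tmem183a.

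For Ucp3 by its first probe set the nearest were Magt1, a magnesium transporter and subunit of the glycosylation machinery, Usp40, a deubiquitinase, Wdtc1, Tmem126a, a mitochondrial membrane protein, and Pars2, the mitochondrial prolyl-tRNA synthetase, with r from 0.91 to 0.92. With the second Ucp3 probe set the same genes had r from 0.17 (Usp40) to 0.63 (Wdtc1). They were picked by their r with the first probe set, so a lower r with the second was likely beforehand. A second probe set of Magt1 had r = 0.29 with 1420657_at, and the other probe sets of Usp40 had r = 0.20, -0.68 and -0.08. None of the 5 genes most like Ucp1 was among the 5 most like Ucp3, but lists this short out of 8865 genes would seldom share a member.

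**Figure D3:**
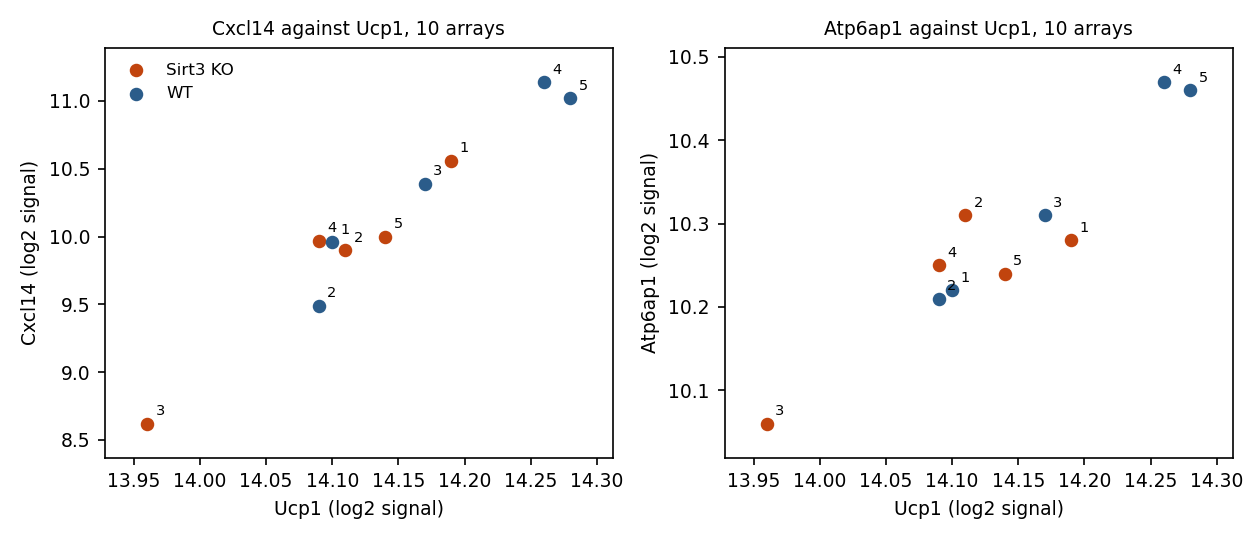
Log2 signal of Cxcl14 (left) and Atp6ap1 (right) against that of Ucp1, 1 point per mouse numbered as in the titles, arrays labelled Sirt3 KO and WT arrays in separate colours. In both panels KO 3 is lowest and WT 4 and WT 5 are highest on both axes, and Cxcl14 spans 2.52 log2 units against 0.325 for Ucp1.

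Brown adipocyte markers other than Ucp1 were read with no other tissue to compare, so they do not check the tissue label. The 12 measured include Cidea, Dio2 and Cox7a1, and 2 of the 12 lay below the median signal of all genes. Their mean ranged from 9.85 to 10.28 in KO arrays and from 9.85 to 10.40 in WT arrays. Of these genes 2 were higher and 10 lower in arrays labelled KO (median -0.06), against 43.9% of all genes higher, 56.1% lower and a median of -0.013; limma called 0. Elovl3, a fatty acid elongase of brown fat, differed by -0.63 ± 0.35, with KO 3 its lowest array at 9.42, and by -0.352 without KO 3. Otop1 differed by -0.07 ± 0.069, Zic1, a transcription factor, by -0.32 ± 0.33 (-0.0739 without KO 4, -0.699 with the muscle covariate), and Cox7a1, a cytochrome oxidase subunit, by -0.03 ± 0.049. The marker mean went with Ucp1 over the 10 arrays at r = 0.73 (permutation p = 0.015, adjusted 0.13) and rho = 0.78 (p = 0.010, adjusted 0.094), and at r = 0.55 without KO 1 and WT 5 and 0.462 without WT 4 and WT 5. This relation was added after the values were seen and did not pass the adjustment. Of 16 alternatives run for it, 15 did not pass either. The 1 that passed left out KO 3, the array lowest in Ucp1, with r = 0.859 and an adjusted p of 0.028 (exact permutation, n = 9). That adjustment does not cover the choice among alternatives.

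Muscle RNA did not go with Ucp1 in a single way. Over all 10 arrays r was 0.00 (permutation p = 1.0, adjusted 1.0) and rho was -0.25 (p = 0.49, adjusted 0.71). KO 1 and KO 3 stood apart as the arrays poorest in muscle transcripts, and they differed in Ucp1, at 14.19 and 13.96. Over the other 8 arrays r was -0.89, so that among these, arrays with more muscle RNA had less Ucp1 signal. That value was not tested. Within groups r was 0.25 in KO arrays and -0.92 in WT arrays (n = 5 each). The muscle markers averaged lower in KO arrays in 20 of 20, their median difference was -1.5, and 0 were called. That median was -0.701 without KO 3 and -0.022 without WT 5, KO 1 and KO 3. Acta1, skeletal actin, differed by -2.15 ± 1.6, Myh7 by -1.14 ± 0.85, Myh1 by -2.40 ± 1.8 and Tnnc2, a troponin, by -2.25 ± 1.7. Without KO 3 these were -1.03 for Acta1, -1.21 for Myh1 and -1.03 for Tnnc2, and Myh7 was -0.32 without WT 2. Ucp3, itself known from skeletal muscle, was set against these markers by its first probe set, 1420657_at, which did not follow them. It had r = -0.23 (permutation p = 0.53, adjusted 0.79), rho = -0.08 (p = 0.84, adjusted 0.84) and r = 0.03 without KO 1 and KO 3. The second probe set was not set against the marker lists on its own. In those 2 muscle-poor arrays 1420657_at was 9.49 and 9.29, inside the range of the others.

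**Figure D4:**
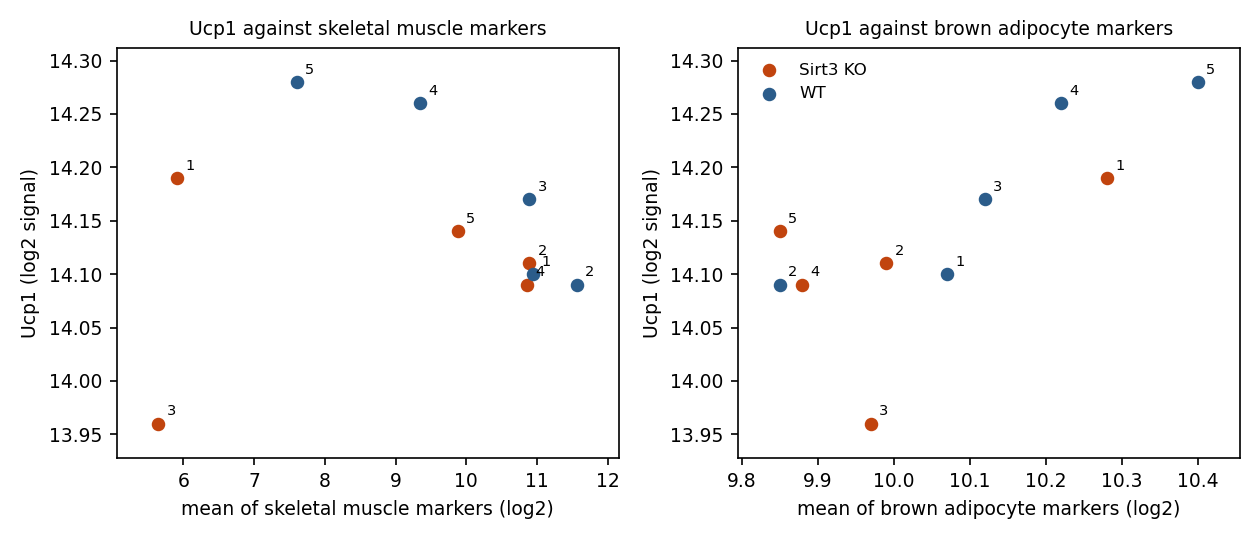
Log2 signal of Ucp1 against the mean log2 signal of 20 skeletal muscle markers (left) and 12 brown adipocyte markers (right), 1 point per mouse numbered as in the titles, arrays labelled Sirt3 KO and WT arrays in separate colours. KO 1 and KO 3 share the lowest muscle values and differ in Ucp1 (14.19 and 13.96), while WT 5 is highest in Ucp1 and in brown adipocyte markers.

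Markers of other cell types were read in the same way. Macrophage markers had a mean of 6.75 to 7.24 in KO arrays and 6.85 to 7.15 in WT arrays, with 8 of 14 higher and a median of 0.01. The 4 with the smallest unadjusted p were all lower, while the highest difference of the list was 0.28. Of these 4, Cd163 differed by -0.73 ± 0.29, Mrc1 by -0.25 ± 0.10, Itgam by -0.23 ± 0.11 and Csf1r by -0.10 ± 0.078. Without WT 4 and WT 5 the difference of Cd163 was -0.316. The mean of all macrophage markers had r = 0.34 with Ucp1 (permutation p = 0.35, adjusted 0.75, and rho = 0.45, p = 0.19, adjusted 0.70) and r = 0.12 without KO 5 and WT 5. With Ucp3 by its first probe set it had r = -0.12 (permutation p = 0.74, adjusted 0.83, and rho = -0.18, p = 0.63, adjusted 0.71) and r = 0.27 without the same arrays.

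Lymphocyte markers, 7 of 9 of them below the median signal of all genes, had means of 4.99 to 5.12 in KO arrays and 4.99 to 5.15 in WT arrays, with 5 of 9 higher and a median of 0.04. Ms4a1 differed by 0.12 ± 0.060, Cd2 by -0.11 ± 0.056, Cd79a by -0.12 ± 0.072 and Cd4 by 0.06 ± 0.060, with its other probe set at -0.05. Their mean had r = 0.29 with Ucp1 (permutation p = 0.42, adjusted 0.75; rho = 0.26, p = 0.47, adjusted 0.71) and -0.06 without KO 2 and WT 5. With Ucp3 by its first probe set it had r = -0.50 (permutation p = 0.14, adjusted 0.61, and rho = -0.42, p = 0.23, adjusted 0.70) and -0.43 without the same arrays.

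White adipocyte markers were split, with 5 of 10 higher, 5 lower and a median of 0.01. The hormone gene Lep differed by 1.5 ± 0.77 and was lowest in WT 4 (6.34) and WT 5 (5.75), the arrays highest in Ucp1. Without those arrays its difference was 0.288. Retn differed by -0.71 ± 0.36, Agt by -0.17 ± 0.091 and Npr3 by 0.47 ± 0.37. Endothelial markers were higher in 11 of 12 (median 0.14), with Esam at 0.36 ± 0.15, Flt1 at 0.19 ± 0.13, Cdh5 at 0.13 ± 0.089 and Robo4 at 0.18 ± 0.13. WT 3 was the lowest array in the endothelial mean, at 8.05, and without it the median was 0.0663, Flt1 0.079, Cdh5 0.0657 and Robo4 0.069. Of the 3 other probe sets of Flt1, 1 had the opposite sign (-0.04). Red blood cell markers were higher in 2 of 5 with a median of -0.0055. In none of these lists did limma call a member.

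Regulators that act on Ucp1 were examined as activators and repressors. The activators share Dio2, Ebf2, Prdm16 and Ppargc1a with the brown adipocyte markers, so these lists are not separate readings. Of 20 measured activators 6 were higher and 14 lower in arrays labelled KO. The median was -0.06 beside -0.013 over all genes, and 0 passed. Across the alternatives that median ranged from -0.101 to -0.026. The mean of the activators was 9.40 to 9.57 in KO arrays, and WT 1 to 3 lay inside this range (9.53, 9.43 and 9.50). Only WT 4 (9.77) and WT 5 (9.74) lay above it. Rxra, the retinoid X receptor that pairs with other nuclear receptors, gave 8.17, 8.33, 8.0, 8.16 and 8.03 in KO 1 to 5, and 8.38, 8.25, 8.33, 8.52 and 8.30 in WT 1 to 5. Only KO 2 reached into the WT range, and the difference was -0.22 ± 0.074 (adjusted p of limma 0.914). Its other probe sets gave -0.04 and 0.06.

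Irf4, a transcription factor that works with PGC-1alpha in mouse brown fat, had the widest difference of the activators at -1.09 ± 0.43 (adjusted p of limma 0.914). It gave 6.65, 6.34, 6.67, 6.13 and 6.12 in KO 1 to 5, and 7.18, 6.51, 6.47, 8.93 and 8.26 in WT 1 to 5. WT 4 and WT 5 stood above the other arrays, as they did for Ucp1, and the difference was -0.725 without WT 4 and -0.339 without both. A second probe set of Irf4 gave -0.34 ± 0.27. Thra, a thyroid hormone receptor, differed by -0.16 ± 0.092 with other probe sets at 0.04 and -0.12, and Zfp516, a zinc finger protein that binds the mouse Ucp1 promoter, by -0.11 ± 0.083, with its other probe set at 0.04.

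Of 7 measured repressors 4 were higher and 3 lower, with a median of 0.01 and 0 called. Rb1, the retinoblastoma protein, differed by 0.14 ± 0.067 and Twist1, which holds back PGC-1alpha in mice, by 0.11 ± 0.12. Zfp423, a zinc finger protein that restrains the thermogenic programme in mouse white fat, differed by -0.21 ± 0.10. Nr1h3, the liver X receptor alpha, differed by -0.16 ± 0.11, and by -0.00948 without WT 4 and WT 5.

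**Figure D5:**
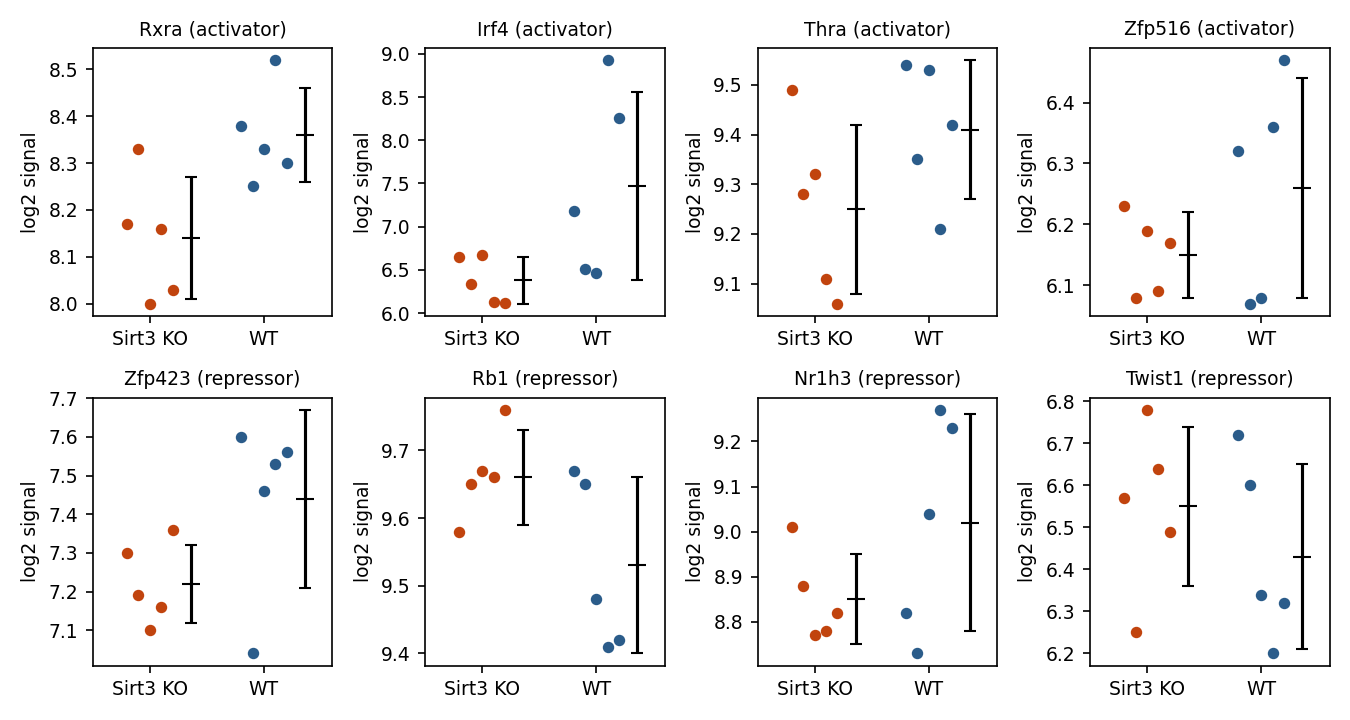
Log2 signal of the 4 activators (top) and 4 repressors (bottom) of Ucp1 with the smallest unadjusted p, in 5 arrays labelled Sirt3 KO and 5 WT arrays, 1 point per mouse in title order with mean and SD beside each group; the axes differ between panels. Irf4 shows the widest spread, with WT 4 (8.93) and WT 5 (8.26) above all other arrays.

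Genes under PPAR control, which share fatty acid supply as a signal with Ucp3, showed no common shift. Of 15 measured, 9 were higher and 6 lower, with a median of 0.0029 and 0 called. Angptl4, an inhibitor of lipoprotein lipase, differed by 0.52 ± 0.27, by 0.266 without WT 5 and by 0.168 without WT 4 and WT 5. Its other probe set gave -0.06, but its mean signal was 2.86, near the lowest value in the table (2.15), against 11.41 for the one used. That dim probe set is therefore a poor check of the first. Slc25a20, the carnitine carrier, differed by -0.12 ± 0.082, and the lipid droplet proteins Plin5 and Plin2 by -0.13 ± 0.11 and 0.08 ± 0.080.

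Mitochondrial carriers related to the uncoupling proteins were likewise split, with 9 of 16 higher, 7 lower, a median of 0.0074 and 0 called. Besides Slc25a20, they were led by Slc25a34 at -0.43 ± 0.32, the citrate carrier Slc25a1 at 0.23 ± 0.17 and the aspartate/glutamate carrier Slc25a12 at -0.74 ± 0.70. Slc25a12 was lowest in KO 1 (5.35), KO 3 (5.15) and WT 5 (5.67), the arrays poorest in muscle transcripts, and with the muscle covariate its difference was 0.106. Its other probe sets gave 0.03 and 0.12.

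The genes next to the members on the chromosome did not pass the test either. In the RefSeq order Ucp3 and Ucp2 are neighbours on mouse chromosome 7, followed by Dnajb13, and C2cd3 lies before Ucp3. C2cd3 differed by 0.02 ± 0.072 and Dnajb13 by -0.04 ± 0.080. Ucp1 lies on chromosome 8 before Elmod2, which differed by -0.07 ± 0.10. These values are KO minus WT in log2 units with SE, and limma called none of the 3.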

How the data were processed

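Brown adipose RNA of 10 mice was read on expression arrays. The authors deposited log2 signals made with RMA, as the submitters' processing notes name it; the sources used here give no version or settings. Since RMA makes array distributions alike, it hides a shift common to most transcripts, and it gives no detection call. The number of arrays limits the precision. Groups and replicate numbers came from the titles; nothing but the littermate wording says that arrays are separate mice, and p-values measure only the spread between arrays.

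Of 45101 probe sets, 64 controls were left out. Of the rest, 34945 had 1 gene in the platform annotation, 932 several and 9160 none; 34741 of the first were named by gene ID through RefSeq (GRCm38.p6), which also supplied promoters and gene order. Each of 18193 genes was represented by its probe set of highest mean signal. Differences are KO minus WT, fitted in R 4.3.3 with limma 3.58.1 (lmFit, eBayes), two-sided, with Benjamini-Hochberg adjustment across all genes, or over all 45037 probe sets for the second Ucp3 probe set and counts of probe sets; a call needed an adjusted p under 0.05. Errors of differences are standard errors and intervals are 95% confidence intervals. Exact permutation ran over 252 splits, and correlations used 100000 permutations, adjusted over 9 relations. The fit was tested on simulated data. Figures were drawn with matplotlib 3.10.9.

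Named genes were every member probe set, Sirt3, up to 4 members per list with the smallest unadjusted p (none for red blood cells), the 5 genes most like each member by r, leaving out clone and accession names, and neighbours within 2 places in the gene order. Members of the lists not measured here include Adrb1 and Adrb3. Members and lists were chosen with earlier results of these data known. Alternatives covered normalization, centring, dim genes, variance models, array weights, probe set choice, a replicate block, a muscle covariate and left-out arrays.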

Additional observations from a re-analysis of the deposited data

Results flagged for a closer look

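Among 134 groups of 5 arrays looked at, 7 held a value far from the rest of its group, by a test that chance passes in about 1 of 20 groups. Atp6ap1, one of the genes most like Ucp1, was at 10.06 in KO 3, against 10.24 in the nearest KO array. Elmod2, next to Ucp1, was at 6.69 in KO 5, with the nearest KO array at 7.0. The Ucp1 repressor Zfp423 was at 7.04 in WT 2, with the nearest WT array at 7.46. Robo4, an endothelial marker, was at 6.81 in WT 3, with the nearest WT array at 7.33. The mean of white adipocyte markers was 6.38 in KO 5, against 6.82 in the nearest KO array, and that of red blood cell markers was 5.29 in KO 1, against 5.51. The mean of the PPAR-controlled genes was 11.91 in WT 4, against 11.76 in the nearest WT array. No probe set of Ucp1 or Ucp3 held such a value in either group.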

How the results depend on the processing

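Ucp1 stayed lower in arrays labelled KO in all alternatives run, from -0.106 (without KO 1) to -0.022 (without WT 4 and WT 5), and was called in none. The Ucp3 probe set 1420658_at stayed positive in all run for it. Some alternatives, such as the variance models and the replicate block, cannot change a difference, so the sign there was fixed in advance. Ucp3 by its first probe set turned sign when probe sets were averaged (0.0473), and without 1 array ranged from -0.111 to 0.032, in the gene and probe set fits alike; the cause was not tested. Genes called were 0 in every alternative. Unadjusted, 1418 genes were under 0.05 without WT 2, 1538 with the muscle covariate and 469 after dim genes were left out, which tests fewer genes, against 851. Alternatives for other named genes, lists and correlations were added after the values were seen. Leaving out 1 array moved 32 of 42 such genes by over 1.5 times or turned their sign. Signs turned for Zfp516 (0.0362) and Angptl4 (-0.062) without _s_at, _x_at or _a_at probe sets; without WT 4 and WT 5 for Twist1 (-0.00587) and Plin5 (0.0474); without WT 5, KO 1 and KO 3 for Twist1 (-0.00158), Acta1 (0.136), Tnnc2 (0.0538) and C2cd3 (-0.0025); and with the muscle covariate for Slc25a12 (0.106) and C2cd3 (-0.0109). For Angptl4, leaving out _s_at, _x_at or _a_at probe sets left only its dim probe set, with a mean signal of 2.86. Without 1 array Elmod2 ranged from -0.126 to 0.00263 and C2cd3 from -0.0243 to 0.074. For correlations, muscle markers with Ucp1 had r = -0.127 after centring, -0.0117 with the mean of all probe sets, -0.814 without WT 5, KO 1 and KO 3, and -0.69 to 0.189 without 1 array. Without WT 5, KO 1 and KO 3, r was 0.168 for macrophage markers with Ucp3 and -0.408 for lymphocyte markers with Ucp1; without 1 array these ranged from -0.501 to 0.0812 and from -0.0273 to 0.604. For brown adipocyte markers with Ucp1, r ranged from 0.603 to 0.859 without 1 array and was 0.462 without WT 4 and WT 5. The titles give both groups replicate numbers 1 to 5. Same-numbered arrays deviated from their group means with correlations of -0.12, 0.24, -0.40, -0.27 and 0.01 across genes. Muscle RNA also varied between arrays, so these values cannot show whether the numbers pair the mice. With the replicate number as a block Ucp1 differed by -0.0824, Ucp3 by -0.054 and 1420658_at by 0.149. Such a block holds 1 array of each group, so it keeps the difference of the main fit and changes only its error. With it 736 genes had an unadjusted p under 0.05 in limma. Ucp2 was listed for the same alternatives and not run, as no probe set was named for it.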
